A study of Danio rerio with 16 samples.

Results

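The 8 libraries of cultured zebrafish ovary exposed to either of a pair of benzamide agonists of SREB1 were compared, as one group, with the 4 vehicle libraries of the same study. They are 8 of the 16 libraries of the series, and were taken by their labels: A8535 replicates 1 to 4 and PT91 replicates 1 to 4 (5 µM each), against Control replicates 1 to 4 (DMSO vehicle). The other 4 libraries, labelled PNX, received the peptide phoenixin at 100 nM and are shown beside the agonists only for orientation, because the dose differs. All 16 were ovary sections from wild-type adult females, cultured for 6 h and sequenced as poly-A RNA. Each ovary was cut into sections that were spread over the treatments, so that libraries of different groups can come from the same fish, and the sources read for this work do not say which libraries share a fish. The sections held mainly primary and early secondary follicles with all their surrounding cells, so a library is a mixture of oocytes, follicle cells, stroma, vessels and blood cells. Of the 26910 genes present in all 3 deposited tables, 18531 had enough reads to be tested.

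SREB1, encoded by gpr27, belongs with SREB2 (gpr85) and SREB3 (gpr173) to a small family of orphan G protein-coupled receptors that is highly conserved among vertebrates and expressed mainly in brain and gonads. Phoenixin, cut from the protein encoded by smim20, is the proposed natural ligand of SREB3, whereas A8535 and PT91 are synthetic ligands found by their recruitment of β-arrestin to SREB1. Both compounds share an N-phenylsulfamoylphenyl benzamide core and differ in the substituents on the benzoyl ring, where A8535 carries chlorines and PT91 a methoxy and a trifluoromethyl group. In the ovary, oocytes store large amounts of maternal mRNA (egg envelope proteins, cyclins, replication factors), and the follicle cells around them make steroids under the control of gonadotropins.

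The receptor genes themselves were close to or under the limit of detection. For gpr27, 1 read was counted in A8535 replicate 1 and none in the other 7 agonist libraries, against 1, 2, 0 and 0 reads in the Control libraries, and the gene was not tested. A count of 0 allows a level of up to 0.199 to 0.293 CPM (counts scaled to the library total) at the depth of these libraries (3 counts, counting error only). The transcript gpr173 had 0 to 1.74 CPM in the agonist libraries (median 0.562) and 0.580, 0.403, 1.46 and 0.630 CPM in Control, and its log2 fold change was -0.01 (SE 1.01). The phoenixin precursor gene smim20 was measured well, with 9.86 to 178 CPM in the agonist libraries (median 42.0) against 10.9, 34.9, 13.2 and 32.1 CPM in Control. The groups overlapped for smim20, with a log2 fold change of 1.23 (SE 0.73, unadjusted p = 0.116 in edgeR's test across all genes), and the value was -0.01 without the 4 agonist libraries described next. Arrestins and receptor kinases (arrb2a, arrb2b, grk4, grk5l and grk6) had log2 fold changes between -0.44 and 0.53, none at an unadjusted p under 0.05, and gpr85 was not analysed here.

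A set of 4 agonist libraries stood apart from the rest by their mitochondrial share. Reads of mitochondrially encoded genes took 3.95% and 2.31% of the counted reads in A8535 replicates 2 and 3 and 4.08% and 3.98% in PT91 replicates 1 and 2, against 0.570% to 1.13% in the other 4 agonist libraries and 0.190% to 1.30% in Control. The same 4 libraries also gave the highest ribosomal protein shares among the agonist and Control libraries (4.87% to 6.14%) and the fewest detected genes (19047 to 21736, against 22077 to 23967 in Control). On these 2 measures PNX replicates 1 and 3 were similar, with ribosomal shares of 5.12% and 5.28% and 20878 and 21617 detected genes. Their mitochondrial shares were lower, at 1.11% and 1.57%. The agonist mean was 2.19% ± 1.59 (SD, n = 8) against 0.687% ± 0.472 in Control (SD, n = 4), with p = 0.105 in a two-sided exact permutation test of 8 against 4 libraries. The mean number of detected genes was 21593 ± 1883 against 23226 ± 882 (exact permutation p = 0.135). Counted reads per library were 10233870 to 15104959 in the agonist groups and 10915559 to 12371198 in Control. Mitochondrial shares this high were seen in those 4 agonist libraries and in no Control library, while the other 4 agonist libraries lay within the Control range. The main counts, the lists and the leading genes below are therefore also given without those 4 libraries. This choice was made after the data were seen. Where a gene is given without such a value, none is implied. The part that the shares play in each result was otherwise not tested.

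**Figure D1:**
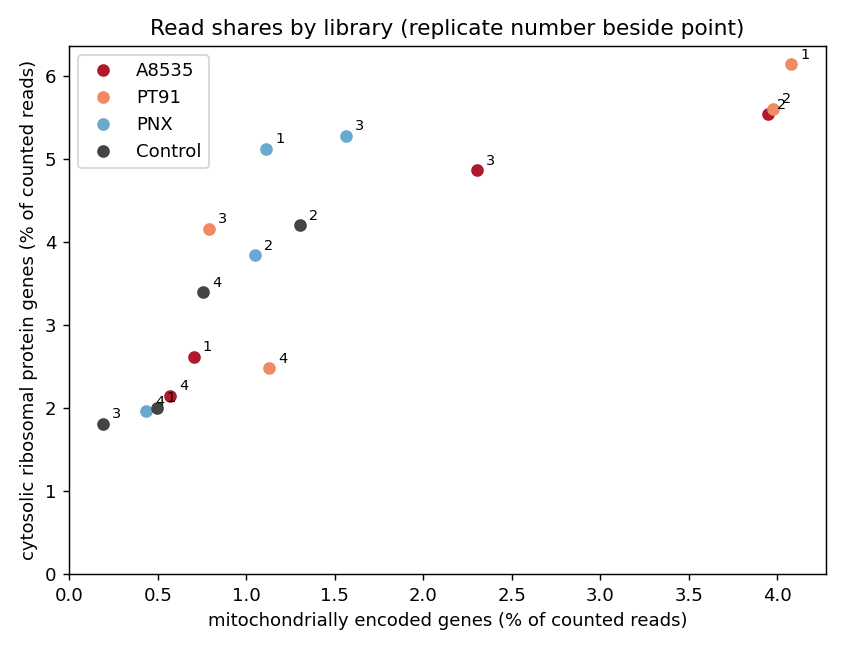
Share of counted reads in mitochondrially encoded genes (x axis, %) against the share in cytosolic ribosomal protein genes (y axis, %), 1 point per library, coloured by group and numbered by replicate. A8535 replicates 2 and 3 and PT91 replicates 1 and 2 lie at 2.31% to 4.08% on the x axis, to the right of every Control library.

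No gene differed between the pooled agonist and Control libraries at an adjusted p under 0.05 in edgeR's quasi-likelihood test with Benjamini-Hochberg adjustment (0 of 18531, 0%). The smallest adjusted p was 0.875. At an unadjusted p under 0.05, 532 genes were higher (2.87%) and 278 were lower (1.5%), 810 in all, where 927 would fall under that threshold if no gene differed. The limma-voom test with quality weights also gave 0 genes at an adjusted p under 0.05 and 618 at an unadjusted p under 0.05. DESeq2 called 18 genes and placed 1447 at an unadjusted p under 0.05. Of these 18, all also met the same-way criterion below (162 of all 18531 genes did). That criterion uses the same libraries, so the overlap was favoured in advance. The 18 were 17 higher genes, among them pttg1, caprin1a, ryr2a, krt15, epb41l4b, ptprsa, mfap5 and the exonuclease gene eri1, and 1 lower gene, si:ch73-139e5.4. Of all genes under that unadjusted threshold, the share that was higher was 65.7% with TMM scaling, 76.4% with upper quartile scaling, 80.4% with library size alone and 51.2% without the 4 libraries of high mitochondrial share. Pooling the compounds gave a standard error of the log2 fold change of 0.49 in the median gene, so smaller changes lay within the error of most genes. Because the ovary is a mixture, fewer cells of a type and less RNA per cell cannot be told apart in any result here.

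Genes changed the same way by both compounds were taken as those with an unadjusted p under 0.05 and the same sign in A8535 against Control and in PT91 against Control, from a fit of the 3 groups over all 18531 genes. Both comparisons use the same 4 Control libraries, so their results are correlated and a gene can pass both by chance more often than with separate Controls. The number of same-way genes expected by chance was not computed. A8535 alone had 331 higher and 123 lower genes at that threshold (454 in all) and PT91 had 700 higher and 434 lower (1134 in all). For each compound, 927 would fall under the threshold if no gene differed. No gene had an adjusted p under 0.05 for either in edgeR (0 and 19 genes in DESeq2). The criterion was met by 162 genes, 124 higher (0.669%) and 38 lower (0.205%). Just inside it were cldn11a, mxf and ldlrad2, where the larger of the 2 p-values lay between 0.0497 and 0.0499, and just outside it were zar1, egln3 and tcf12 (0.0503 to 0.0505). The 124 higher genes had a median log2 fold change of 2.17 in A8535 and 2.41 in PT91, and the 38 lower genes had -1.01 in A8535 and -1.16 in PT91. The higher genes were mostly scarce transcripts in Control (median 13.8 CPM in the agonists against 2.56 CPM in Control), whereas the lower genes were better expressed (19.3 against 49.8 CPM). Both sets were picked by these same levels, so the levels are a description. A gene could also pass the read filter on its agonist libraries alone, as the higher gene ppap2d did, with a mean of 0 CPM in Control. Across all genes tested these medians were 14.7 and 14.3 CPM.

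The number of same-way genes rested on particular libraries. It was 90 without A8535 replicate 2, 107 without Control replicate 3 and 255 without A8535 replicate 4, and it lay between 108 and 231 when any other library was left out. Without the 4 libraries of high mitochondrial share, which leaves 2 libraries per compound, 36 genes met the criterion (26 higher and 10 lower), and 17 of the 130 original genes that could still be tested were among them. Those 17 were pttg1, caprin1a, txnipa, ptprsa, nr5a1a, fam13a, eri1, adsl, lrrc59, c6, ppp1caa and sdf4 (higher), and adh8b, fbxo38, rilpl2, zgc:55461 and si:ch73-139e5.4 (lower). The pooled log2 fold change kept its sign in 129 of the 130. These genes were picked on data that already held the remaining libraries, so a kept sign was favoured in advance. The pooled count at an unadjusted p under 0.05 was 361 without the 4 libraries and 431 without Control replicate 3.

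**Figure D2:**
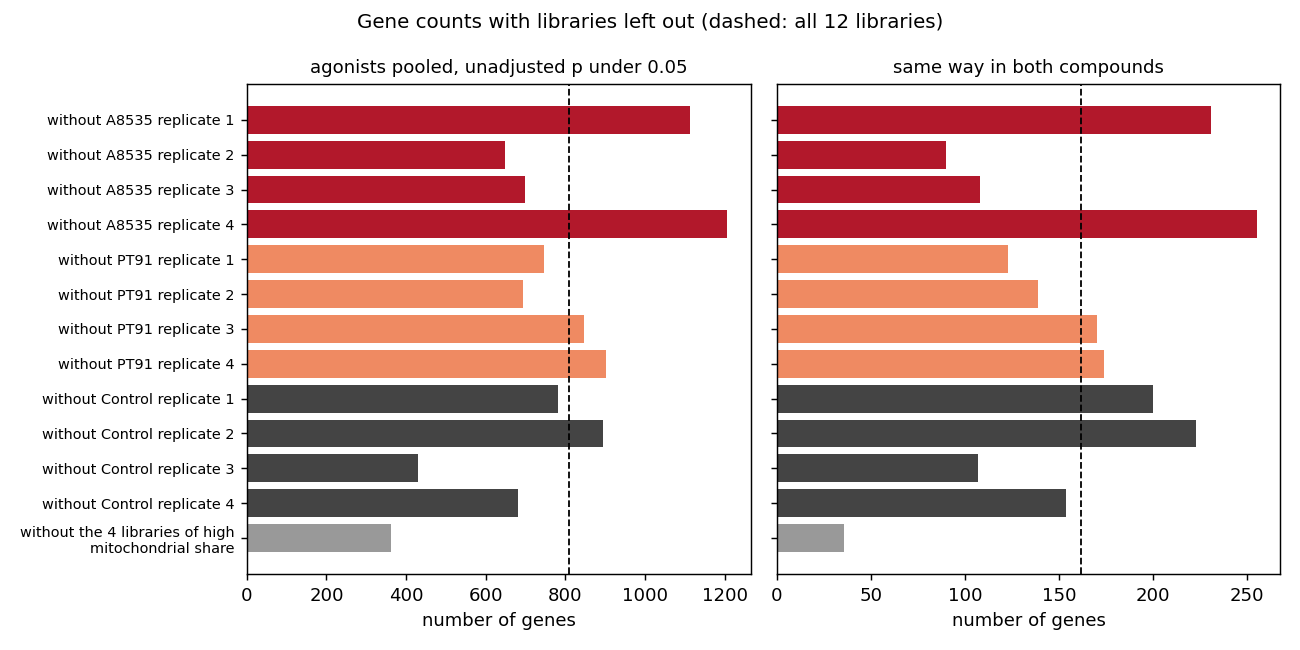
Number of genes (x axis) at an unadjusted p under 0.05 in the pooled comparison (left) and changed the same way by both compounds (right) when the library named on the y axis is left out. The dashed line marks the value with all 12 libraries, 810 and 162 genes, and the lowest bar of same-way genes is 36.

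Among the leading higher genes, pttg1 encodes securin, which holds back the separation of sister chromatids. The gene (chromosome 14, 34558478 to 34561282 in GRCz11) had 45.0, 23.4, 2.83 and 43.7 CPM in A8535 and 5.47, 26.7, 20.8 and 77.1 CPM in PT91, against 2.57, 5.72, 1.46 and 2.97 CPM in Control. A8535 replicate 3 and PT91 replicate 1 fell within the Control range and the other 6 agonist libraries lay above it. The pooled log2 fold change was 3.26 (SE 0.80, unadjusted p = 0.00116), and 3.85 without the 4 libraries of high mitochondrial share. A second copy of pttg1 on an alternate scaffold had a mean of 51.3 CPM in the agonists and 29.1 CPM in Control, with a log2 fold change of 0.82, and the value for the summed copies was 1.43. Reads shared by such near-identical copies can be split by the counting, so values of duplicated genes are uncertain.

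The RNA-binding protein gene caprin1a, which acts in the control of translation (chromosome 7, 26998208 to 27021294), had 29.6, 13.3, 16.5 and 19.5 CPM in A8535 and 5.14, 25.3, 16.0 and 33.7 CPM in PT91, against 4.97, 2.98, 6.34 and 6.75 CPM in Control. Only PT91 replicate 1 overlapped Control. The log2 fold change was 1.92 (SE 0.47, unadjusted p = 0.00117), with 1.90 in A8535 and 1.93 in PT91. Leaving out any of the 12 libraries gave 1.79 to 2.05, and leaving out the 4 of high mitochondrial share gave 2.23. In the PNX libraries caprin1a had 5.48, 28.7, 20.7 and 27.5 CPM.

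The gene txnipa encodes thioredoxin-interacting protein, a member of the α-arrestin family that restrains glucose uptake. It was the most abundant of the leading higher genes, with 377, 350, 654 and 225 CPM in A8535 and 716, 238, 387 and 443 CPM in PT91, against 226, 144, 65.3 and 152 CPM in Control. Of the agonist libraries, A8535 replicate 4 alone overlapped Control, at the level of Control replicate 1. The log2 fold change was 1.53 (SE 0.39, unadjusted p = 0.00157), and 1.28 without the 4 libraries of high mitochondrial share. For epb41l4b, which encodes a membrane-cytoskeleton linker of the band 4.1 family, all 8 agonist libraries (9.35 to 21.1 CPM, median 13.7) lay above the 4 Control libraries (6.96, 5.24, 2.93 and 5.94 CPM). Its log2 fold change was 1.45 (SE 0.37, unadjusted p = 0.00163), and 1.17 without the 4 libraries. The PNX libraries, at 16.7, 10.7, 13.0 and 17.9 CPM, lay in the agonist range.

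The noncoding RNA oip5-as1, known in zebrafish as cyrano, also had all agonist libraries (21.6 to 56.7 CPM, median 35.1) above Control (18.2, 17.2, 14.2 and 14.8 CPM), with a log2 fold change of 1.13 (SE 0.31). The sources read do not say whether the counting used strand, so reads of oip5-as1 and of its antisense partner cannot be told apart. The value was 0.67 without the 4 libraries of high mitochondrial share. The receptor phosphatase gene ptprsa had 4.39 to 13.0 CPM in the agonists (median 7.57) against 4.64, 1.53, 2.05 and 2.34 CPM in Control, a log2 fold change of 1.61 (SE 0.44) that was 1.42 without the 4 libraries. A single Control library, replicate 1, reached the lower end of the agonist range.

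The calcium release channel gene ryr2a had a larger but more uneven difference. It had 0.999, 11.3, 22.0 and 1.61 CPM in A8535 and 1.74, 16.1, 29.1 and 1.33 CPM in PT91, against 0.995, 0.403, 0.585 and 0.540 CPM in Control. The mean rested on A8535 replicates 2 and 3 and PT91 replicates 2 and 3, while the other 4 agonist libraries were barely above the highest Control library. The fitted log2 fold change was 4.04 (SE 1.09). Without the 4 libraries of high mitochondrial share it was 3.72, with 4.60 in PT91 but 1.03 in A8535. The keratin gene krt15 had a similar spread, 0.0850 to 14.7 CPM in the agonists (median 4.18) against 0.415, 0.403, 0 and 0.0900 CPM in Control, and PNX replicates 1 and 3 reached 12.8 and 26.2 CPM. It was too low to be tested without the 4 libraries.

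The other 4 leading higher genes were zgc:153911 (log2 fold change 1.41) and the alternate-scaffold copies of sdf4, nupr1 and si:dkey-286h2.3 (1.94, 2.03 and 2.21). The gene sdf4 encodes a calcium-binding protein of the Golgi, and nupr1 a stress-induced nuclear protein. In all 4 genes the 8 agonist libraries lay above Control. The values without the 4 libraries of high mitochondrial share were 1.18 for zgc:153911, 1.80 for sdf4, 1.54 for nupr1 and 1.54 for si:dkey-286h2.3. The chromosome 3 copy of nupr1 overlapped Control widely, with 1.63 to 174 CPM in the agonists (median 11.7) against 3.40, 11.8, 0.195 and 47.9 CPM. The chromosome 7 copy of si:dkey-286h2.3 had a log2 fold change of -0.13, and the sum of its copies gave 0.87 (unadjusted p = 0.239).

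Among the leading lower genes, the mannosyltransferase gene alg2, an early step of N-glycan assembly (chromosome 16, 27215808 to 27224124), had 116, 47.1, 48.1 and 121 CPM in A8535 and 58.3, 73.3, 70.9 and 80.8 CPM in PT91, against 127, 156, 201 and 161 CPM in Control. All 8 agonist libraries lay below all 4 Control libraries. The log2 fold change was -1.07 (SE 0.27, unadjusted p = 0.00144), with -0.96 in A8535 and -1.19 in PT91, and it was -0.73 without the 4 libraries of high mitochondrial share.

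The replication helicase subunit gene mcm3l also had no overlap, with 109 to 241 CPM in the agonists (median 174) against 304, 245, 369 and 302 CPM in Control. Its log2 fold change was -0.79 (SE 0.23), with -0.80 in A8535 and -0.78 in PT91, and it was -0.63 without the 4 libraries. The PNX libraries at 349, 217, 209 and 432 CPM spanned both ranges. Cyclin B1, the regulatory subunit of the kinase that drives oocyte maturation, is encoded by ccnb1. It had 1171, 593, 673 and 1403 CPM in A8535 and 591, 689, 1453 and 832 CPM in PT91, against 1520, 1781, 1778 and 1690 CPM in Control. None of the agonist libraries reached the lowest Control library, and the log2 fold change was -0.87 (SE 0.29, unadjusted p = 0.00873). Without the 4 libraries of high mitochondrial share it was -0.48 (unadjusted p = 0.0600).

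The egg envelope gene zpcx had 158 to 569 CPM in the agonists (median 282) against 683, 397, 852 and 1343 CPM in Control, with a log2 fold change of -1.37 (SE 0.40), or -1.20 without the 4 libraries. Only Control replicate 2 overlapped the agonists. The alcohol dehydrogenase gene adh8b had 0.529 to 11.4 CPM (median 7.25) against 42.7, 28.1, 8.00 and 31.9 CPM, with a log2 fold change of -2.06 (SE 0.57) that was nearly equal in A8535 (-2.03) and PT91 (-2.08). It was -1.95 when the 4 libraries were left out. In this gene Control replicate 3 alone lay within the agonist range. The gene mpnd had a log2 fold change of -1.23, or -0.95 without the 4 libraries. The uncharacterised gene si:ch73-139e5.4 had -2.17 without overlap between the groups, and -1.51 without the 4 libraries. Its other copy had -0.58, and the summed copies gave -1.23 (unadjusted p = 0.0802).

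**Figure D3:**
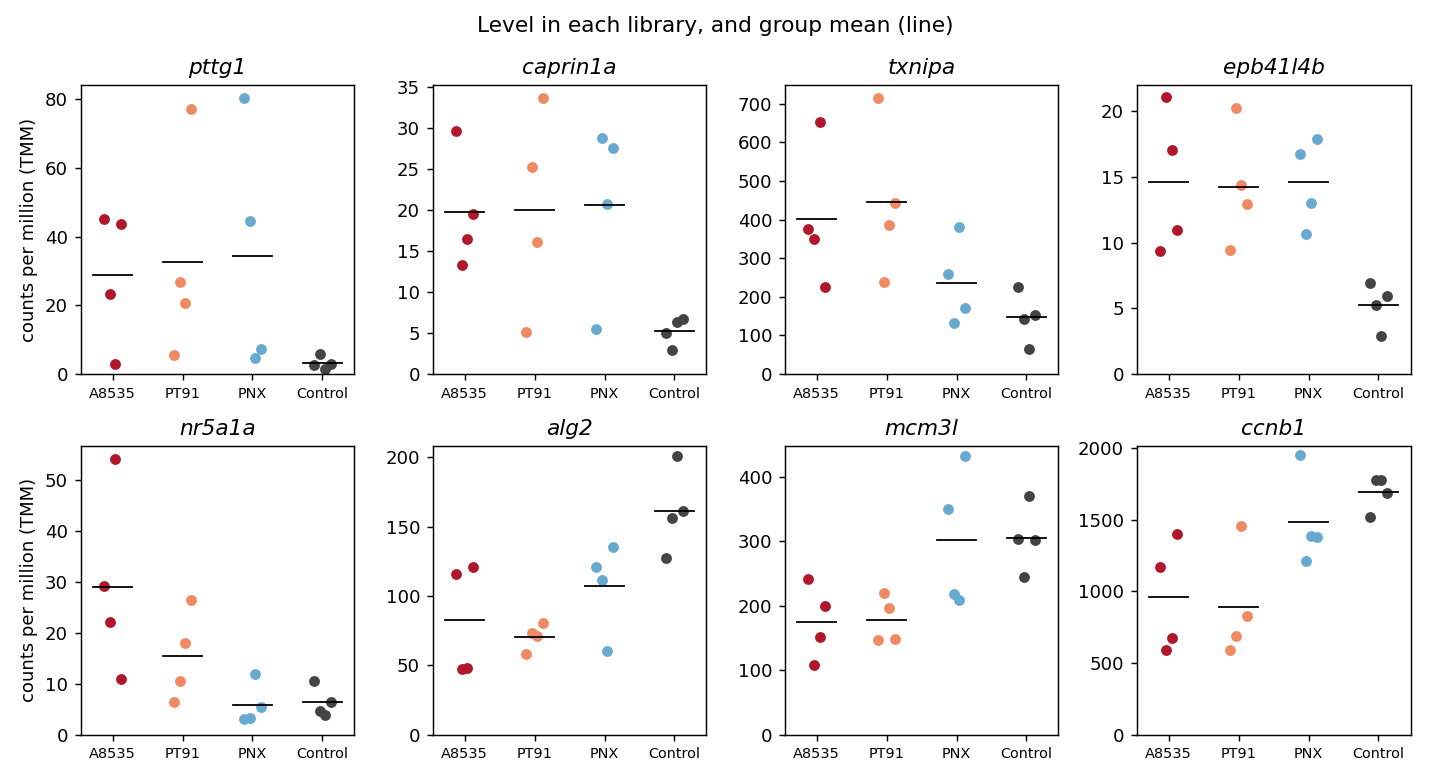
Level in CPM (y axis, from 0, TMM scaling) of 8 genes in every library of A8535, PT91, PNX and Control (x axis), with the group mean as a line. In epb41l4b, alg2, mcm3l and ccnb1 the agonist points do not overlap those of Control, and in pttg1 and caprin1a 6 and 7 of the 8 agonist points lie above every Control point.

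The remaining 6 leading lower genes exist in several copies, and the other copies had other values. The chromosome 8 copy of capza1b, an actin-capping subunit gene, had 0.363 to 1.97 CPM in the agonists against 1.24, 5.80, 0.488 and 25.4 CPM in Control, a log2 fold change of -3.14. It rested on Control replicate 4, without which it was -1.44 (unadjusted p = 0.0836). The other copy was at 36.3 to 72.0 CPM in the agonists against 65.6, 13.3, 80.4 and 2.88 CPM in Control, and the summed copies gave 0.38. For zgc:55461 the listed copy had -2.17 and the summed copies 0.20, and for the clamp-loader gene rfc3 these values were -2.80 and -0.10. For rilpl2 they were -2.48 and -0.26, for zgc:171517 -2.60 and -0.42, and for fbxo38, a ubiquitin ligase subunit gene, -1.06 and -0.47. None of the 6 summed values had an unadjusted p under 0.05. The listed copies had -3.27 (capza1b) to -0.93 (fbxo38) when the 4 libraries of high mitochondrial share were left out. Alternate-scaffold copies made up 16.1% of the higher and 15.8% of the lower same-way genes, and 11.3% of all genes tested.

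Considering genes without overlap between the groups, 35 had all 8 agonist libraries above all 4 Control libraries (0.189%) and 46 had all 8 below (0.248%). Some genes separate in full by chance alone when 8 libraries are set against 4. If every arrangement of the 12 libraries were equally likely, the number expected in each direction would be similar to the 35 and 46 seen. No excess over that level was therefore shown, and none was tested for. A lack of overlap, here or for the genes above, does not by itself mark a gene as changed. Of the 35 and 46 genes, 23 higher and 13 lower ones also met the same-way criterion. Besides those above, and chosen after their values were seen, the higher ones included esm1 and sele, endothelial genes for a secreted proteoglycan and for E-selectin, with mean levels of 2.69 against 0.878 CPM and 8.61 against 3.39 CPM. They also included il15, an interleukin gene, at 1.29 against 0.211 CPM, the interleukin receptor gene il4r.1 at 7.65 against 2.25 CPM, and bcam, an adhesion molecule gene, at 36.3 against 14.3 CPM. The lower ones included degs2, a sphingolipid desaturase gene, at 167 against 265 CPM, zc3hc1, a nuclear pore protein gene, at 148 against 218 CPM, and smg9, of the nonsense-mediated decay machinery, at 42.0 against 66.3 CPM. Fewer libraries are more easily separated in full, so counts with a library left out cannot be compared directly with those above. The number without overlap was 258 without Control replicate 1, 230 without replicate 2, 139 without replicate 3 and 209 without replicate 4. It was 127 without A8535 replicate 1, 154 without A8535 replicate 4 and 122 without PT91 replicate 1.

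Genes of steroid synthesis and gonadotropin reception had a median log2 fold change of 0.29 over 23 tested members, where the median of all genes was -0.03. By the unadjusted threshold, 3 members were higher (13.0%, against 2.87% of all genes) and none lower. The transcription factor gene nr5a1a, a master regulator of steroidogenic enzymes, had 29.1, 22.2, 54.2 and 10.9 CPM in A8535 and 6.55, 10.6, 18.1 and 26.4 CPM in PT91, against 10.5, 4.76, 3.81 and 6.48 CPM in Control. All 4 A8535 libraries lay above Control, and PT91 replicate 1 lay within it. The log2 fold change of nr5a1a was 1.80 (SE 0.55, unadjusted p = 0.00568) and 1.72 without the 4 libraries of high mitochondrial share. In PNX it had 3.13, 3.35, 11.9 and 5.44 CPM.

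The enzyme gene hsd3b1, which converts pregnenolone, averaged 15.7 ± 8.85 CPM in the agonists (SD, n = 8) and 7.5 ± 2.20 CPM in Control (SD, n = 4), and the luteinizing hormone receptor gene lhcgr averaged 12.3 ± 7.66 and 5.35 ± 3.30 CPM. The log2 fold changes without the 4 libraries were 1.13 for hsd3b1 and 1.11 for lhcgr (unadjusted p = 0.0672 for lhcgr). With all libraries they were 0.63 and 0.91 in PT91 and 1.39 and 1.44 in A8535, with intervals of the PT91 over A8535 difference that include 0 (-1.79 to 0.27 and -1.84 to 0.77). The more abundant members scarb1, the lipoprotein receptor gene, and hsd17b12a had -0.31 and 0.07. The list's summed level was not higher, with 1376 to 2110 CPM in the agonists (median 1640) against 1636 to 2074 CPM in Control (median 1998). Steroid-cell markers cyp11a1 and cyp17a1 had log2 fold changes of -0.17 and -0.63.

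Mitochondrially encoded genes had the highest list median, 1.61 over 13 members. By the unadjusted threshold 10 members were higher (76.9%, against 2.87% of all genes) and none lower. None of the 13 met the same-way criterion, since A8535 and PT91 did not both pass. The ATP synthase subunit gene ATP6 had 672, 3176, 1082 and 357 CPM in A8535 and 4323, 3031, 460 and 641 CPM in PT91, against 311, 662, 212 and 572 CPM in Control. The high values were those of A8535 replicates 2 and 3 and PT91 replicates 1 and 2. Without these 4 libraries the list median was 0.04 and no member had an unadjusted p under 0.05. The 4 libraries were picked by their reads of mitochondrially encoded genes, so a lower median of this list is built into the choice. Related lists also had lower medians without the 4 libraries. Cytosolic ribosomal proteins (81 genes) had a median of 0.64 with all libraries and -0.13 without the 4, nuclear respiratory chain subunits (87 genes) 0.41 and -0.14, and mitochondrial ribosomal proteins (74 genes) 0.39 and -0.20. With all libraries these lists had 3, 5 and 5 higher members and 0, 0 and 1 lower ones at an unadjusted p under 0.05. The higher shares were 3.70%, 5.75% and 6.76%, against 2.87% of all genes, and the first lies near that background. Without the 4 libraries the cytosolic ribosomal proteins had 1 higher and 1 lower member and the other lists none. Of their members, rpl21 and cox8b met the same-way criterion, but the summed copies of rpl21 gave -0.09.

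**Figure D4:**
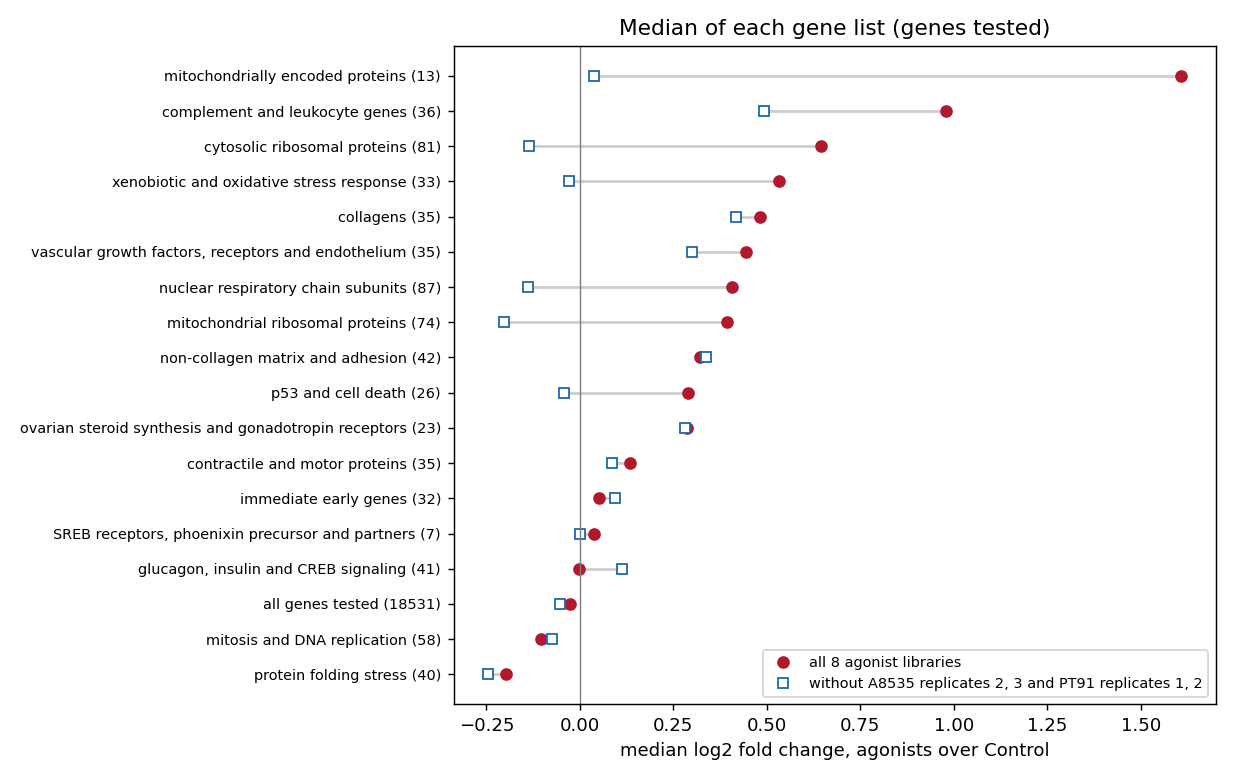
Median log2 fold change of agonists over Control (x axis) for each gene list and for all genes tested (y axis, number of genes tested with all libraries), with all 8 agonist libraries (filled circles) and without A8535 replicates 2, 3 and PT91 replicates 1, 2 (open squares). The mitochondrially encoded list lies at 1.61 and 0.04, and the collagen list at 0.48 and 0.42. The libraries left out were picked by reads of mitochondrially encoded genes, so the fall of that list is built into the choice.

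Complement and leukocyte genes had a median of 0.98 over 36 members. By the unadjusted threshold 9 were higher (25%, against 2.87% of all genes) and none lower. The neutrophil-attracting chemokine gene cxcl8b.1 had 0.850 to 6.13 CPM in the agonists (median 1.75) against 0.663, 0.564, 0.293 and 0.540 CPM in Control, with no overlap and a log2 fold change of 2.24 (SE 0.71). The gene b2m, which encodes the light chain of class I histocompatibility molecules, had 77.4, 610, 288 and 49.3 CPM in A8535 and 418, 583, 140 and 85.2 CPM in PT91, against 19.3 to 120 CPM in Control. Its log2 fold change was 2.05 (SE 0.75) with all libraries and 0.37 without the 4 of high mitochondrial share, in which b2m was highest. For cxcl8b.1 the value was 1.66 without them. Among the class II invariant chain genes, cd74b averaged 44.6 CPM in the agonists and 14.3 CPM in Control and cd74a 44.3 and 19.2 CPM. The summed leukocyte markers had 26.0 to 114 CPM in the agonists and 4.90 to 50.0 CPM in Control. They did not follow the list in every library. In PT91 replicate 2 the list summed to 1023 CPM, but the markers to 26.0 CPM, the lowest of the agonist libraries. Of the 7 markers, cd74a was higher at an unadjusted p under 0.05, and ptprc, lcp1 and csf1ra had 0.71, 1.34 and 1.46, while mpeg1.1 and coro1a were too low to be tested. The part of leukocyte content in these values was not tested. Without the 4 libraries the list median was 0.49 with 2 higher members.

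Collagens had a median of 0.48 over 35 members and other matrix and adhesion genes 0.32 over 42, and these medians were 0.42 and 0.34 without the 4 libraries. By the unadjusted threshold 3 collagens (col18a1a, col6a1 and col5a2a) and 4 other genes (mfap5, itga1, fbn1 and emilin1a) were higher, and none was lower. These are 8.57% and 9.52% of the lists, against 2.87% of all genes. The list medians of the compounds lay apart. The collagen median was 0.05 in PT91 and 0.78 in A8535, and that of the other matrix genes 0.03 in PT91 and 0.60 in A8535. The basement membrane collagen gene col18a1a had 112, 53.4, 66.5 and 31.8 CPM in A8535, 26.3, 29.6, 32.8 and 51.0 CPM in PT91, and 26.5, 28.9, 29.5 and 25.2 CPM in Control. Every A8535 library lay above Control, whereas PT91 replicate 1 lay within it. Only mfap5, a microfibril protein gene, met the same-way criterion, with 0.255 to 9.32 CPM in the agonists (median 1.96) against 0.580, 0.242, 0.0976 and 0.270 CPM in Control, and it was too low to be tested without the 4 libraries.

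Vascular genes had a median of 0.44 over 35 members, with pdcd10a and vegfaa higher and flt4 lower by the unadjusted threshold. As shares, 5.71% were higher and 2.86% lower, against 2.87% and 1.5% of all genes. The growth factor gene vegfaa averaged 28.4 ± 7.44 CPM in the agonists (SD, n = 8) and 15.9 ± 4.99 CPM in Control (SD, n = 4). One agonist library, PT91 replicate 2, lay within the Control range. Its log2 fold change was 0.83 (SE 0.30, unadjusted p = 0.0163), with 0.87 in A8535 and 0.80 in PT91, and 0.63 without the 4 libraries. The endothelial markers kdrl and cdh5 had 0.10 and 0.28, and cldn5b, pecam1, tie1 and egfl7 had 0.61, 0.70, 0.79 and 1.43. None of the 6 endothelial markers had an unadjusted p under 0.05. Their summed level was 26.1 to 59.4 CPM in the agonists and 23.2 to 33.2 CPM in Control.

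In the contractile list, with a median of 0.13 over 35 members, ryr2a, cnn2, acta2, myl9a and tpm4a were higher and kif23 was lower at an unadjusted p under 0.05. That is 14.3% higher and 2.86% lower, against 2.87% and 1.5% of all genes. Smooth muscle actin, acta2, averaged 36.2 ± 14.9 CPM in the agonists (SD, n = 8) and 16.1 ± 7.32 CPM in Control (SD, n = 4), with a log2 fold change of 1.16. When the 4 libraries were left out, acta2 had 0.99 (unadjusted p = 0.0576) and cnn2 had 0.37, against 1.25 for cnn2 with all libraries. Of the 5 smooth muscle markers, acta2 and myl9a were higher, and their summed level was 44.8 to 215 CPM in the agonists and 27.3 to 90.9 CPM in Control.

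In the glucagon, insulin and CREB list, whose median was 0.00 over 41 members, gcga, sik1 and crtc1a were higher (7.32%, against 2.87% of all genes). The proglucagon gene gcga had 34.1, 123, 157 and 15.9 CPM in A8535 and 159, 140, 59.2 and 29.1 CPM in PT91, against 9.29, 28.5, 2.93 and 35.5 CPM in Control. A8535 replicates 1 and 4 and PT91 replicate 4 lay within the Control range. Its log2 fold change was 2.23 (SE 0.75), and 0.84 (unadjusted p = 0.264) without the 4 libraries of high mitochondrial share. Other pancreas markers were scarce, with cpa5 at 4.82 against 1.67 CPM, cel.1 at 2.35 against 1.51 CPM and ela2 too low to be tested.

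Some oocyte markers were lower. Of 11 markers, zar1, zp2.1 and zp3a.2 were lower and none was higher at an unadjusted p under 0.05, where 1.5% of all genes were lower. Their log2 fold changes were -0.89, -0.77 and -0.58. The summed level of the 11 markers was 6894 to 12956 CPM in the agonists and 10930 to 13146 CPM in Control. The maternal factor gene zar1, which encodes no egg envelope protein, averaged 694 CPM in the agonists and 1283 CPM in Control. The other 8 markers had an unadjusted p over 0.05, among them h1m (0.34), dazl (0.06), buc (-0.24) and the egg envelope gene zp3a.1 (-0.41). The egg envelope gene zp3.2, chosen after its values were seen, met the same-way criterion, with a mean of 1008 CPM in the agonists and 1725 CPM in Control. In the mitosis and replication list (58 genes, median -0.10) pttg1 was higher and ccnb1 and ccna2 were lower (3.45%, against 1.5% of all genes). In the protein folding list (40 genes, median -0.20) pdia2 was higher and atf4a, atf6, pdia4 and calr3b were lower. As shares, 2.5% were higher and 10% lower, against 2.87% and 1.5% of all genes. Without the 4 libraries of high mitochondrial share, none of the 39 members tested was higher and 1 was lower, with a list median of -0.24. The transcription factor gene atf4a, of the stress response, had a log2 fold change of -0.67, or -0.47 without the 4 libraries (unadjusted p = 0.0835). For pdia2 these values were 1.19 and 0.34. By the unadjusted threshold, immediate early genes (32 genes, median 0.05) and p53 and cell death genes (26 genes, 0.29) each had 1 higher member, and xenobiotic response genes (33 genes, 0.53) had 2 higher and 1 lower. As shares, 3.13%, 3.85% and 6.06% of these lists and 1.72% of the mitosis list were higher, against 2.87% of all genes tested, so the first, second and last lie near that background. Of the markers that could be tested, none of 4 for granulosa cells and none of 2 for erythrocytes passed it. Without the 4 libraries of high mitochondrial share, the list medians were 0.09 for immediate early genes, -0.04 for p53 and cell death genes and -0.03 for xenobiotic response genes. No member of these lists then had an unadjusted p under 0.05.

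Further same-way genes were chosen for naming after their values were seen, from no fixed list. None of them was among the 17 that still met the criterion without the 4 libraries of high mitochondrial share. They included the lipid and retinoid carrier genes fabp11a (mean 194 CPM in the agonists against 36.4 CPM in Control), apoc1 (22.1 against 3.72 CPM), rbp4 (27.9 against 7.59 CPM), and angptl4, an inhibitor of lipoprotein lipase (220 against 97.9 CPM). Also higher were mhc1zba, a class I histocompatibility gene (101 against 34.1 CPM), psmb10, an immunoproteasome subunit (8.43 against 1.26 CPM), cd40 (13.1 against 2.49 CPM) and ccl19a.1 (55.6 against 5.32 CPM). The prostaglandin-inactivating enzyme gene hpgd stood at 29.1 against 8.02 CPM and the actin-sequestering tmsb4x at 417 against 91.3 CPM. The transcription factor gene gata6 averaged 23.9 against 9.65 CPM and the podocalyxin gene podxl 80.6 against 30.4 CPM. Among the lower same-way genes, treh, which encodes trehalase, averaged 22.8 against 61.6 CPM.

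For the direct comparison of the structures, PT91 was set against A8535 at the same dose and time, the only pair of compounds compared. No gene differed at an adjusted p under 0.05 in edgeR (0 of 18531), and 1 gene, the alternate-scaffold copy of rpn2, did in DESeq2. At an unadjusted p under 0.05 in edgeR, 233 genes were higher in PT91 (1.26%) and 131 higher in A8535 (0.707%). These are 364 in all, where 927 would fall under that threshold if no gene differed. The 95% interval of the PT91 over A8535 difference spanned 2.43 log2 units in the median gene, so differences of several fold would not have been detected in many genes, and a p over the threshold does not show that the compounds acted alike. Among the 162 same-way genes PT91 had the larger fold change in 74 of 124 higher and 29 of 38 lower genes. The share over all genes tested was not computed. PT91 alone also had more genes at an unadjusted p under 0.05 (1134, against 454 for A8535), so the counts are not a trait of the same-way genes. Of the 162, 3 had an unadjusted p under 0.05 for the difference: eri1 (2.48), fbxo38 (-0.68) and zgc:171517 (-2.25). The leading genes were picked with the same sign required in both compounds, which favours small differences, so the differences are a description. They lay between -2.25 (zgc:171517) and 1.22 (rilpl2), with 0.02 for caprin1a (95% interval -1.08 to 1.13) and 0.15 for txnipa (-0.78 to 1.09).

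**Figure D5:**
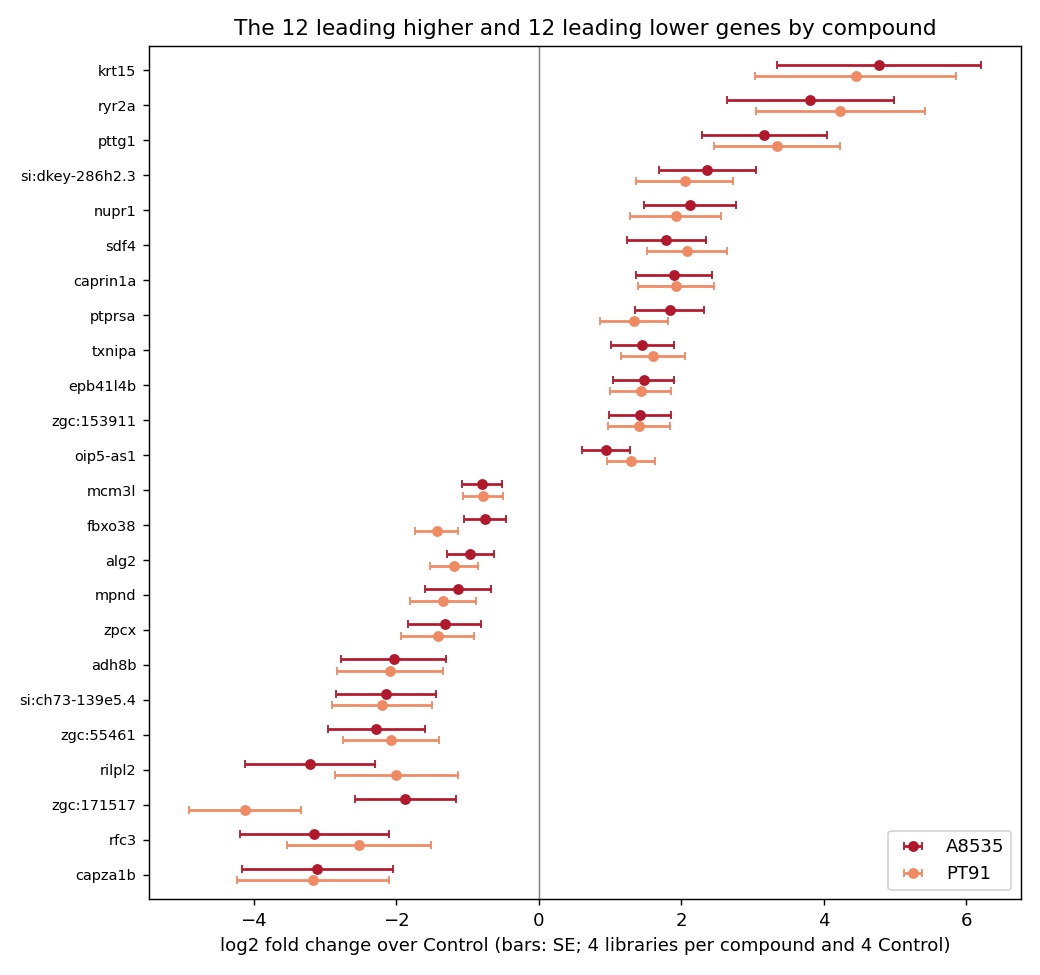
Log2 fold change over Control (x axis) of A8535 (dark red) and PT91 (orange) for the 12 leading higher and 12 leading lower genes (y axis), with bars of 1 SE from the fit of 3 groups. Both compounds share the same Control libraries, and the largest gap is in zgc:171517, at -4.12 in PT91 and -1.87 in A8535.

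The genes with the smallest p for the compound difference were mostly scarce or duplicated, and 5 of the 8 lie on alternate scaffolds. Higher in PT91 were rpn2 (alternate-scaffold copy, 3.79, 95% interval 2.00 to 5.58), ndufb4 (4.13), eif2b2 (2.15) and zgc:123096 (2.88). The ndufb4 value came from PT91 replicates 2 and 4, at 8.08 and 35.2 CPM, while the other 6 agonist libraries had 0.425 to 1.08 CPM. The gene zgc:123096 had 1.66, 36.3, 15.0 and 38.7 CPM in PT91 and 1.18, 5.06, 1.26 and 4.93 CPM in A8535, against 22.9, 28.7, 16.7 and 35.4 CPM in Control. All 4 A8535 libraries lay below Control, as did PT91 replicates 1 and 3, and PT91 replicate 1 lay within the A8535 range. Lower in PT91 were hspa4b (alternate-scaffold copy, -3.34), coro1cb (-5.01), bcl7bb (-2.38) and kdm4c (-2.35). The histone demethylase gene kdm4c had 0.331, 1.24, 0.984 and 2.98 CPM in PT91, 3.81, 4.69, 7.41 and 12.4 CPM in A8535, and 2.82, 6.69, 6.73 and 4.50 CPM in Control.

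Members of the lists also differed between the compounds at an unadjusted p under 0.05. Lower in PT91 than in A8535 were col5a3a (-2.47), col18a1a (-0.92, 95% interval -1.70 to -0.14) and col4a2 (-1.03) of 35 collagens, and the matrix genes fn1b (-1.28), vcanb (-1.28) and thbs1b (-1.04) of 42. The lymphatic receptor gene flt4 was lower in PT91 than in A8535 by a log2 difference of -1.59 (95% interval -2.71 to -0.48). Higher in PT91 were pdcd10a (1.04), the respiratory subunit genes ndufb4, sdhc (3.89), ndufs4 (2.71) and atp5ib (1.93) of 87, and the ribosomal protein genes rps27a (3.97) and rps15 (2.78) of 81. Further members higher in PT91 were mrpl35 (1.12), mrps22 (1.13), hells (1.94), dynll2a (1.55) and the chromosomal copy of rfc3 (2.78). Further members lower in PT91 were mrpl28 (-3.61), c9 (-3.26) and sik1 (-0.85). Both compounds had ndufs4 below Control (-3.79 in A8535, -1.08 in PT91). Over all genes, 1.26% were higher in PT91 and 0.707% in A8535 by that threshold. The pdcd10a gene, a regulator of vessel integrity, had 127, 138, 108 and 58.1 CPM in PT91, 35.1, 55.2, 79.8 and 38.8 CPM in A8535, and 42.8, 34.2, 29.7 and 32.9 CPM in Control.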

How the data were processed

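Per the study's methods and the submitters' notes, the authors trimmed the reads (fastp), mapped directional poly-A libraries onto GRCz11 by HISAT2 2.0.5, and obtained gene counts by featureCounts 1.5.0-p3. The deposited read counts per gene were used as they stand. The deposited tables also hold 48 per-sample columns of FPKM or normalized values and the authors' own DESeq2 fold changes and p-values, none of which was used. The 3 tables were joined on gene ID (26910 shared genes, with identical Control counts in each).

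Genes passing filterByExpr (18531) were scaled by TMM and tested with edgeR 4.0.16 (robust quasi-likelihood) in R 4.3.3, 8 agonist against 4 Control libraries. The fit of 3 groups gave the compounds singly, and that of 16 libraries the contrast with PNX. P-values were Benjamini-Hochberg adjusted over all genes. DESeq2 1.42.0, limma 3.58.1, scalings, filters, a replicate block, summed copies and leaving out each library were alternatives. The tests were tried on simulated data.

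The gene groups and the 17 lists and 8 marker lists were chosen with earlier results of these data known. Named genes were the 12 higher and 12 lower with the smallest p (with a symbol, average log2 CPM of at least 0, same sign in both compounds), up to 4 leading and 2 abundant members of each list, receptor genes, other copies of these, and 4 higher and 4 lower genes by compound difference. Others are marked in the text. Since separate fish per library are not given, p-values measure the spread between these libraries. An A8535 and a PT91 library can come from the same fish, so the 8 pooled libraries may stand for fewer than 8 fish. The pooled tests and SDs treat the 8 as independent, and can misstate the spread between fish.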

Additional observations from a re-analysis of the deposited data

Results flagged for a closer look

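Within groups of 4 libraries, 81 sets of values were screened for a library far from the other 3 (24 leading genes and 3 library measures in A8535, PT91 and Control), and 1 was marked, where chance alone marks about 1 in 20. In the alternate-scaffold copy of fbxo38, Control replicate 2 stood at 5.54 on the log2(CPM + 1) scale, while the other 3 Control libraries lay between 5.34 and 5.37. The gap is small in level, at 45.6 CPM against 39.6, 40.4 and 39.8 CPM.

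The 8 genes with the smallest p for the compound difference were screened for compounds on opposite sides of Control, a choice that favours such a split. The alternate-scaffold copy of hspa4b, a heat shock protein gene, was marked, with a Control mean of 0.719 CPM. Every PT91 library lay below that mean (0.249, 0.674, 0.606 and 0.497 CPM) and every A8535 library above it (1.27, 2.95, 3.43 and 13.2 CPM). The PT91 values are close to the floor of 3 counts (0.199 to 0.293 CPM). The log2 fold change of PT91 over A8535 was -3.34 (95% interval -5.04 to -1.64, adjusted p = 0.970 over all genes in edgeR), and a test of opposite movement beyond this was not run. Of the other copies of hspa4b, 2 scarce ones had differences of -3.44 and -2.98, and the most abundant had -0.24.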

How the results depend on the processing

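The count of genes at an adjusted p under 0.05 in the pooled comparison was 0 under each alternative except DESeq2 (18). At an unadjusted p under 0.05, the pooled count of 810 became 1476 with no filter, 1447 with DESeq2 and 361 without the 4 agonist libraries of high mitochondrial share, and was 431 to 1205 with single libraries left out. For A8535 the count of 454 became 728, 907 and 146 under the same settings (253 without A8535 replicate 3 to 805 without A8535 replicate 4). For PT91 the count of 1134 became 1783 with DESeq2 and 369 without the 4 libraries (490 without Control replicate 3 to 2169 without PT91 replicate 4, with 543 and 631 without PT91 replicates 1 and 2). For PT91 against A8535 the count of 364 became 840, 888 and 138 (189 without PT91 replicate 1 to 1349 without A8535 replicate 2, with 211 without A8535 replicate 1 and 1111 without PT91 replicate 4). For the agonists against PNX the count of 756 became 1261 with no filter and 1325 with DESeq2 (691 to 1177, the highest without PT91 replicate 3). The 162 same-way genes became 318 with DESeq2 and 36 without the 4 libraries (90 to 255), and the 81 genes without overlap became 312 without the 4 libraries (85 to 258). Settings that leave out libraries hold fewer samples, which by itself raises the number of genes without overlap. The cause was not tested otherwise.

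All 24 leading genes kept direction and an unadjusted p under 0.05 under the scalings, filters, DESeq2, the fit of 16 libraries and the replicate block. With limma-voom 2 genes lost the threshold, and without Control replicate 1, 2 or 4 it was 1 gene each time. Without the 4 libraries, 23 of the 24 were tested and kept it. The 24 were picked for the smallest p on these same libraries, which favours keeping it in all these settings. With copies summed, zgc:55461 (0.20) and capza1b (0.38) reversed and 6 others lost the threshold. Whether the single-copy values reflect a split of reads between copies was not tested. Scaling moved the median log2 fold change of all genes between -0.03 and 0.03 and reversed no list median but that of the glucagon, insulin and CREB list (0.00, 0.02 to 0.08 under other scalings). With each library left out in turn, the difference in mitochondrial share was 1.23 to 1.73 percentage points (exact permutation p 0.0576 to 0.273) and that in detected genes was -2015 to -1269.

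The labels do not pair the samples by replicate number, and 6 of 12 same-numbered pairs had deviations correlated above 0.1 (-0.29 to 0.59). Between PT91 and A8535 the correlations were 0.26, 0.46 and 0.59 for replicates 2, 3 and 4, each the best match of its number, and -0.04 for replicate 1, a hint from the data and not from the design. With the replicate block the PT91 against A8535 count was 387. The same block gave a same-way count of 146, of which 83 were among the 162, and no gene of the pooled comparison had an adjusted p under 0.05. The floor of 3 counts (0.199 to 0.293 CPM) limits scarce genes, and the spread between libraries (median biological coefficient of variation 0.569) limits the rest.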

Other observations

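The mitochondrial large ribosomal RNA mt-rnr2 met the same-way criterion, with a mean of 3223 CPM in the agonists and 354 CPM in Control and a log2 fold change of 3.19 (3.16 in A8535 and 3.22 in PT91). It was not among the 17 genes that still met the criterion without the 4 libraries of high mitochondrial share. It is not a member of the mitochondrially encoded protein list, none of whose 13 members met the criterion.

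Set against the 4 PNX libraries, given at another dose, the 8 agonist libraries had 0 of 19216 genes at an adjusted p under 0.05 in edgeR, 756 at an unadjusted p under 0.05 (312 higher and 444 lower in the agonists), and 11 genes at an adjusted p under 0.05 in DESeq2. If no gene differed, 961 would fall under the unadjusted threshold. Mean levels of pttg1 were 30.6 CPM in the agonists and 34.2 CPM in PNX, and those of caprin1a were 19.9 and 20.6 CPM. By contrast, nr5a1a stood at 22.3 CPM in the agonists and 5.94 CPM in PNX, mcm3l at 177 and 302 CPM, and adh8b at 6.64 and 20.6 CPM. Of the same-way genes, 13 of the 124 higher and 14 of the 38 lower ones had an unadjusted p under 0.05 against PNX in edgeR, where 756 of all 19216 genes did. Most of the higher same-way genes were therefore not shown to differ from PNX, which does not show equal levels. The genes were chosen on the agonist libraries, so these pairs and counts are a description.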
